A study of Mus musculus with 24 samples.

Results

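The genes that charge, carry and remove ubiquitin were examined in gastrocnemius muscle of mice 24 h after a scald burn. Members were chosen by name: protein-coding rows of the gene count table whose symbol is Uba1 to Uba7, Ube2 followed by a letter, Usp followed by a number, Uchl1, Uchl3 or Uchl5, or starts with Otu. This gave 112 of the 55401 rows, which hold 21897 protein-coding genes. The members are 6 E1 genes, 36 E2 genes, 55 USP genes, 3 UCH genes and 10 OTU genes, plus 2 genes that carry such a name but encode neither an E2 nor a deubiquitinase: Ube2cbp, an E2-binding protein, and Usp6nl, a GTPase-activating protein.

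Ubiquitin is put on proteins by a relay. An E1 enzyme activates it, an E2 enzyme carries it and an E3 ligase passes it from the E2 to the target, while deubiquitinases of the USP, UCH and OTU families take it off again or edit the chains. Related proteins such as NEDD8, SUMO and ISG15 have E1 and E2 enzymes of their own. In skeletal muscle this system marks myofibrillar and other proteins for the proteasome, and it is best known there for the ligases that rise when muscle wastes.

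The mice were C57BL6 males, 12 in all, with 3 in each of 4 groups. At the procedure the age was 5 weeks in the young groups and 11 weeks in the adult groups. Young burn and adult burn mice received a scald over 25% of the body surface with intraperitoneal fluid resuscitation. Young sham and adult sham mice had neither the scald nor that fluid, and all groups had the same anaesthetic and analgesic. The burn therefore cannot be told apart from the resuscitation fluid. Poly-A RNA of each muscle gave 1 library of 4392605 to 5688512 counts. The study asks whether muscle of young animals responds to burn differently from adult muscle. Whole muscle was sequenced, so fewer cells of a type and less RNA per cell cannot be told apart. Skeletal muscle markers were detected in every library.

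Young burn replicate 2 stood apart. Its mean correlation with its own group was 0.941, against 0.960 to 0.982 for the other libraries, and the study left 1 young burn animal out of its own heat map. The comparisons below use the other 11 libraries, so young burn has 2 mice, and calls that change with all 12 are named. Calls are genes with an adjusted p under 0.05 in edgeR's quasi-likelihood test, corrected over the 12651 genes tested. Levels are in CPM, a library's counts of a gene divided by its scaled total in units of 1e+06.

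Of the 112 members, 9 had no count in any library, 103 had at least 1 and 92 were counted in every library. The low-count filter left 91 for testing: all 6 E1, 30 of 36 E2, 42 of 55 USP, all 3 UCH and 8 of 10 OTU genes, and both others. Members took 0.511% to 0.783% of a library's counts. Ube2v1, an E2 variant without a catalytic cysteine, had only 11 counts in the 12 libraries together. Of its exon bases, 69.1% lie in exons of another gene, and reads that overlap more than 1 gene are not counted by the authors' counter.

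Promoters are shown for Otud3, which had the largest called difference between the sham groups, and Ube2b, the most abundant member, because each holds an E-box. The sequences are from RefSeq on GRCm38.p6, 250 bases before to 50 after a start site, which was available for 88 of the 112 members (105 sequences). Capitals mark the E-box CACGTG in both and, in Otud3, also the antioxidant response element core TGACNNNGC, searched on both strands. They lie at chr4:138913919-138914218 and chr11:52000737-52001036, both on the minus strand.
Otud3: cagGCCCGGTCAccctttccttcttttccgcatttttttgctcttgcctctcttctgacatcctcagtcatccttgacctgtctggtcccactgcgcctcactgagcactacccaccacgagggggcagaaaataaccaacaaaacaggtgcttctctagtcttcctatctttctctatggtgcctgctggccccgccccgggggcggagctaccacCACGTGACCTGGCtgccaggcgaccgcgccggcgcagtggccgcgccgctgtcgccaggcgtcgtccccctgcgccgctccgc
Ube2b: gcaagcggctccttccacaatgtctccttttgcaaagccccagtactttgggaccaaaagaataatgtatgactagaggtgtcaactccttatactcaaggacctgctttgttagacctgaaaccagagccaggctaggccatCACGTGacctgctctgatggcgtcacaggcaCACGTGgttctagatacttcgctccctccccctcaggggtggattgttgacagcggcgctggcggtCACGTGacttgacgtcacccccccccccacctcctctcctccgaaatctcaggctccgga
In the Otud3 sequence the E-box starts 33 bases before the start site and shares letters with the core that starts 29 bases before it, and another core lies at 247 bases before. In Ube2b, E-boxes start 107, 76 and 10 bases before the start site. A second Ube2b start site in RefSeq had no E-box in its window. An E-box was found in 7.15% of the 32817 promoters searched and in 11 of 105 member promoters, and the antioxidant core in 12.4% and in 20 of 105. The D-box TTATGTAA was in none of the member promoters and in 0.935% of all. The interferon-stimulated core GAAANNGAA was in 8.57% of the member promoters and in 8.55% of all, and it was absent from the windows of Ube2l6 and Uba7. These matches are letters in a window and were not tested as binding sites.

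Levels differed widely between members. Compared per length, as CPM per kb of annotated exon averaged over the 11 libraries, Ube2b was far above every other member at 448 CPM per kb. Ube2b is an E2 that works with ligases of the N-degron pathway and has long been tied to protein breakdown in muscle. Its level was 876 to 1021 CPM in young sham, 837 and 789 in young burn, 917 to 1056 in adult sham and 961 to 1084 in adult burn. It alone made up 27.0% to 30.3% of all E2 counts in a library on the CPM scale.

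The next E2 genes per length were Ube2g1 (64.3 CPM per kb), Ube2d1 (62.5), Ube2r2 (62.2) and Ube2m (45.9). Ube2g1 and Ube2r2 work with cullin ligases, Ube2d1 is a broadly used E2 of the UBE2D family, and Ube2m carries NEDD8. Among E1 genes, Uba1, the main ubiquitin E1, led with 28.7 CPM per kb, followed by Uba2 of the SUMO pathway with 15.1 and Uba3 of the NEDD8 pathway with 10.8. Uba6, the other ubiquitin E1, had 1.71. The highest USP genes were Usp13 (57.2 CPM per kb), Usp2 (53.4), Usp25 (24.7), Usp47 (17.5) and Usp19 (15.9). Usp2 is a known output of the circadian clock, and Usp19 has been linked to muscle wasting. Otub1 led the OTU genes with 25.9 CPM per kb, before Otud6b (16.7), Otud1 (16.5), Otud4 (8.44) and Otud7b (7.79). Otub1 also restrains E2 enzymes such as Ube2n. Uchl5, which binds the proteasome, had 12.1, Uchl3 6.85 and Uchl1, best known from neurons, 4.55. Exon length counts every annotated exon, which understates genes with long rare exons such as Ube2d3 with 24499 exon bases.

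**Figure D1:**
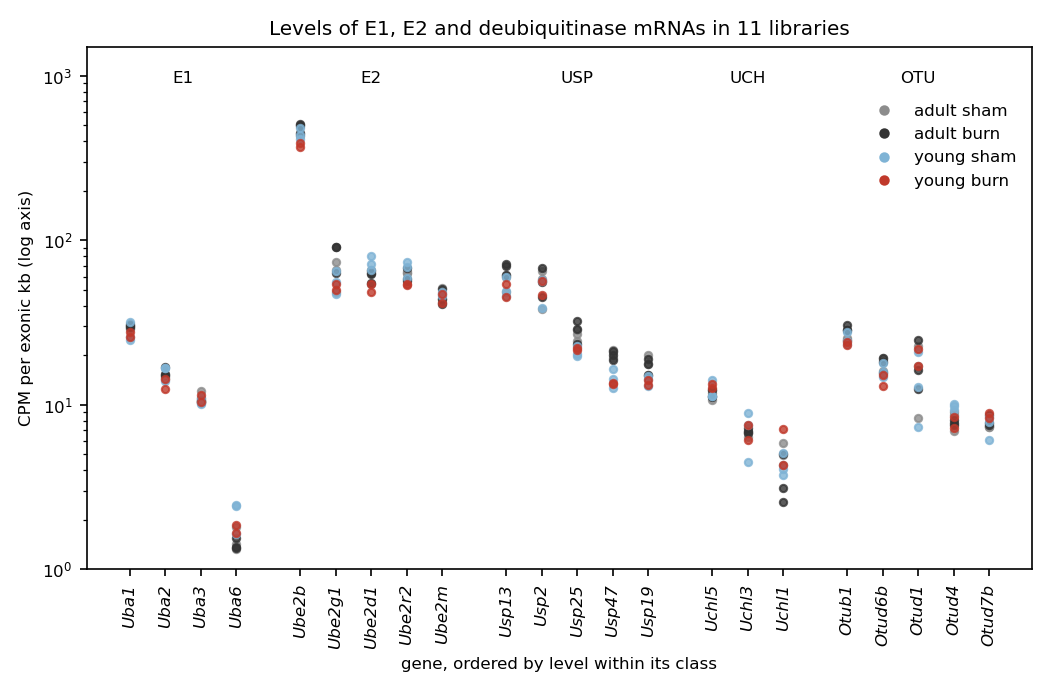
Level of up to 5 of the highest members of each class (4 for E1 and 3 for UCH) in the 11 libraries, in CPM per exonic kb on a log axis, with 1 point per library coloured by group. Ube2b lies near 448 CPM per kb and no other member exceeds a mean of 64.3.

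The highest of the 11 libraries was a median of 1.61 times the lowest over the 91 tested members, under 1.5 times for 36 of them and over 3 times for 7. Over the tested protein-coding genes the median was 1.83 times. Otud1 was among the widest, from 20.7 to 70.4 CPM, and this range occurred within the sham groups too: young sham mice had 59.2, 20.7 and 36.1 CPM and adult sham mice 64.1, 48.7 and 23.5. Otud1 was not called in any comparison, with adjusted p from 0.523 to 0.903.

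In sham muscle, 7 of the 91 tested members were called between the ages, all lower in young mice. This is 7.69% of the members, against 11.9% of all 11878 protein-coding genes tested in either direction and 6.77% in the lower direction. Whether these shares differ was not tested. Of the 7, 4 are USP genes (Usp9x, Usp12, Usp24, Usp47), 1 is an OTU gene (Otud3) and 2 are E2 genes (Ube2g2, Ube2z). No E1 or UCH gene was called. With all 12 libraries 5 were called (5.49%), against 3.75% of protein-coding genes in either direction, and Ube2g2 and Ube2z no longer passed.

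Otud3, at chr4:138895379-138913945, encodes an OTU deubiquitinase. It had 6.33, 6.28 and 8.05 CPM in young sham and 13.4, 12.01 and 16.5 CPM in adult sham. The groups did not overlap, and every adult sham mouse lay above every young one. Its log2 fold change was -1.04 ± 0.19 (SE), a 2.05-fold difference, with an adjusted p of 0.00334. The sham comparison rests on 26 to 78 counts a library.

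Usp9x, at chrX:13071498-13173328, encodes a large deubiquitinase that stabilises many substrates. It had 23.6, 15.6 and 18.8 CPM in young sham and 34.9, 39.9 and 37.5 in adult sham, again without overlap. The log2 fold change was -0.97 ± 0.15 (SE, adjusted p 0.00147). Usp24 (chr4:106316213-106441322), a relative of Usp9x, had 63.3, 51.8 and 52.9 CPM in young sham and 81.1, 99.9 and 81.0 in adult sham. It was 1.57-fold lower in young mice (log2 -0.65 ± 0.12, adjusted p 0.00298). Both of these very large USP genes were lower in each young sham mouse than in any adult sham mouse. The study's RNA quality report gives no RNA integrity number for any sample. In it, no young sham sample had a higher ratio of large to small ribosomal RNA than any adult sham sample. The same held for adult burn samples against adult sham samples, while the ratios of young burn and adult burn samples overlapped. The part of RNA quality in any of the comparisons was not tested.

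Usp47 (chr7:112023504-112111661), whose product acts on the base excision repair polymerase, had 227, 173 and 196 CPM in young sham against 266, 290 and 296 in adult sham (log2 -0.53 ± 0.11, adjusted p 0.00677). Usp12, whose product needs a WD-repeat partner to be active, had 11.4, 9.52 and 8.05 CPM against 14.5, 15.6 and 17.0 (log2 -0.71, adjusted p 0.0147). It was not called without young sham replicate 3, where the adjusted p was 0.0754. The groups did not overlap for either gene. The genes described so far for the sham groups were picked by their calls in these libraries. Their lack of overlap is therefore no separate support.

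The E2 genes showed smaller differences. Ube2g2, an E2 of the pathway that clears misfolded proteins from the endoplasmic reticulum, had 67.7, 64.0 and 51.7 CPM in young sham and 94.3, 79.3 and 73.8 in adult sham (log2 -0.44, adjusted p 0.0372). Ube2z had 44.3, 39.1 and 31.4 CPM against 53.8, 55.3 and 46.9 (log2 -0.45, adjusted p 0.0344). Ube2z is charged by Uba6 rather than Uba1. Uba6 itself lay the other way, at 13.4, 20.1 and 19.7 CPM in young sham and 11.6, 10.9 and 14.6 in adult sham, with groups that overlapped and an adjusted p of 0.0761. Ube2g2 lost its call in 8 and Ube2z in 7 of 14 alternatives.

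**Figure D2:**
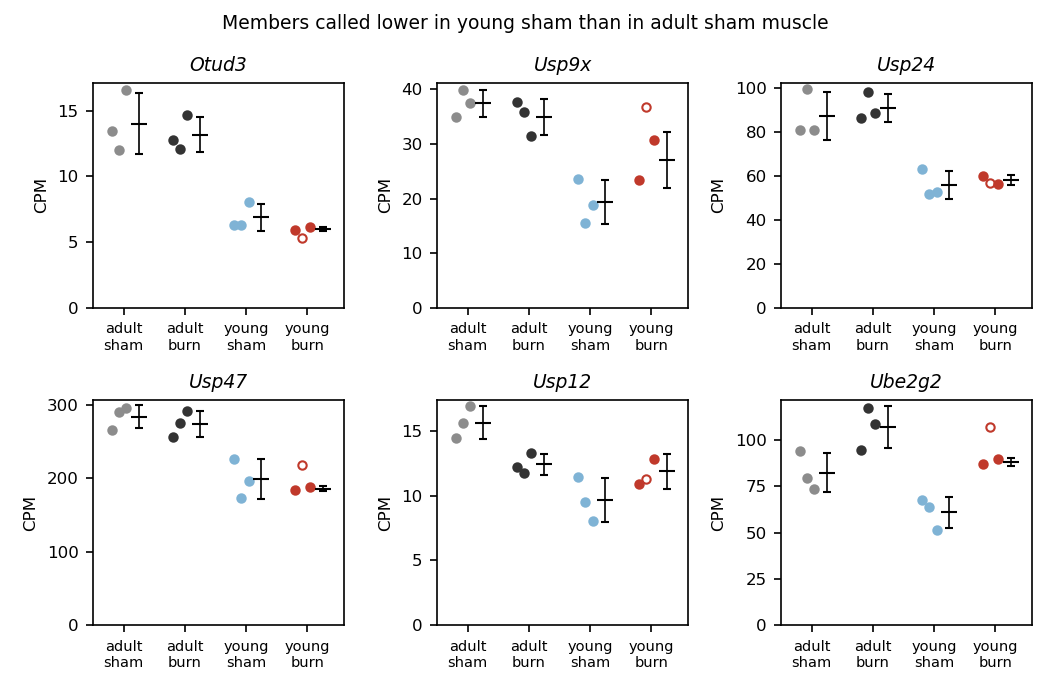
CPM of 6 of the 7 members called between young sham and adult sham, 1 point per mouse, with mean ± SD beside each group. The open circle is young burn replicate 2, left out of mean and SD. Young sham lies below adult sham without overlap in all 6 panels, and for Otud3 and Usp24 the young burn mice lie as low. The genes were picked by their calls in these same libraries, so the lack of overlap is no separate support.

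Some cell type and fibre markers differed with age in the same libraries, where 11.9% of all protein-coding genes tested were called in either direction. Of 5 fibroblast markers, 3 were called higher in young sham, none of the 5 was at 0, and their summed level was 7733 to 8817 CPM in young sham and 2740 to 3803 in adult sham. Of 4 Schwann cell and nerve markers, 3 were called higher, with sums of 179 to 313 and 136 to 153 CPM. Skeletal muscle markers summed to 115074 to 166540 CPM in young sham and 96943 to 107237 in adult sham, with 1 of 7 called higher and 1 lower. Fast glycolytic fibre markers summed to 55642 to 82527 and 45417 to 49104 CPM, with 1 of 4 called higher. Myh4 is in both this list and the skeletal muscle list, so their sums are not separate. Slow fibre markers summed to 813 to 1384 CPM in young sham and 610 to 1508 in adult sham, which overlap. Of the 12 clock genes of the repressor phase, 4 were called lower in young sham. The part of these in the results on the members was not tested.

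In adult mice, no member was called between burn and sham by edgeR, against 0.926% of protein-coding genes. At an unadjusted p under 0.05 there were 12 members (10 higher and 2 lower), or 13.2%, against 13.7% of protein-coding genes. The split by direction over all genes was not counted at this threshold, so that of the members has nothing to be set against. DESeq2 also called none of the 80 members it gave an adjusted p, against 2.36% of genes, and with 12 libraries edgeR called none, against 0.00853%. The median half-width of a member's 95% interval was ± 0.27 on the log2 scale, and the widest was ± 0.93. These widths are not a limit of detection: adjustment over all genes tested can leave changes larger than the median half-width uncalled.

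Usp14, a deubiquitinase that binds the proteasome and trims chains before substrates enter, had the lowest p of the fixed list after adult burn. It had 73.4, 80.4 and 74.3 CPM in adult burn and 59.8, 56.6 and 61.7 in adult sham, without overlap. As Usp14 was picked by its p in these libraries, the lack of overlap is no separate support. The log2 difference was 0.35 ± 0.09 with an adjusted p of 0.0862. Uchl5, the other proteasome-bound deubiquitinase, had 33.0, 32.7 and 35.8 CPM in adult burn and 35.8, 34.7 and 31.2 in adult sham, a log2 difference of -0.0037 with a 95% interval of -0.25 to 0.24. The difference between these genes was not tested. Of the Usp14 exon bases, 26.0% overlap exons of Thoc1.

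The subunits of the proteasome itself, which are not members, were tested in the same fit. Of 32 subunits, 15 were called higher in adult burn and none lower, and all 32 were higher at an unadjusted p under 0.05, with a median log2 fold change of 0.43. The median over the members was 0.029 and over all protein-coding genes 0.00016. Among 4 ubiquitin-coding genes Ubb was called (log2 0.63, adjusted p 0.0259), and among 10 muscle atrophy ligases Trim63, the ligase MuRF1, was called (log2 1.15, adjusted p 0.0259). None of these calls was made with all 12 libraries, where 1 protein-coding gene was called in all.

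In young mice, no member was called between burn and sham by edgeR, against 0.682% of protein-coding genes. At an unadjusted p under 0.05 there were 11 (7 higher and 4 lower), or 12.1%, against 16.2%. Here too the split by direction over all genes was not counted. With all 12 libraries edgeR again called none, against 0.0683%. DESeq2 called 1 of 85 members on the 11 libraries, against 1.86% of genes, and 5 of 78 on all 12, against 4.95%.

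The gene that DESeq2 called on 11 libraries was Ube2d1 (chr10:71254980-71285262). It had 238 and 212 CPM in young burn, 158 in the young burn mouse left out, and 316, 350 and 288 in young sham, so every young burn mouse lay below every young sham mouse. Ube2d1 was picked by its DESeq2 call in these libraries, so the lack of overlap is no separate support. The log2 difference was -0.49 ± 0.12. The adjusted p was 0.0808 in edgeR and 0.0232 in DESeq2. In adult mice Ube2d1 had 240, 275 and 276 CPM after burn and 237, 288 and 285 after sham (log2 -0.036, 95% interval -0.27 to 0.20). Its relatives Ube2d2a and Ube2d3 gave log2 differences of -0.17 and 0.017 in young mice, with adjusted p of 0.614 and 0.956. The 4 members that DESeq2 called besides Ube2d1 with all 12 libraries were Ube2g2, Ube2z, Usp9x and Usp20, all higher in young burn. In edgeR on 11 libraries their adjusted p ran from 0.0857 to 0.224. Usp20, outside the fixed list, is named after its values were seen.

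Usp14 had 61.3 and 65.0 CPM in young burn and 49.2, 52.3 and 55.8 in young sham, without overlap (log2 0.28, adjusted p 0.204). Of the 32 proteasome subunits 2 were called higher in young burn, 28 were higher at an unadjusted p under 0.05, and the median log2 fold change was 0.36. The median over the members was -0.044. Of 6 macrophage markers 2 were called higher, none was at 0, and their sum was 273 and 434 CPM in young burn and 153 to 201 in young sham. Their part in the members' values was not tested.

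**Figure D3:**
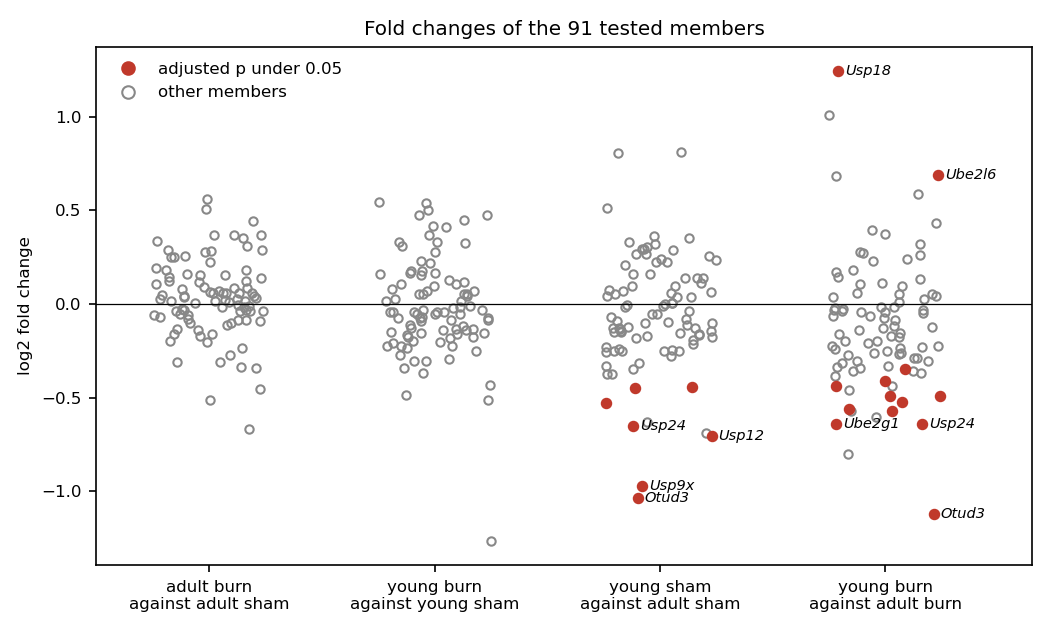
Log2 fold changes of the 91 tested members in the 4 comparisons of 11 libraries, 1 point per gene with sideways scatter for legibility. Filled points passed an adjusted p of 0.05: none in either burn comparison, 7 between the sham groups and 13 between the burn groups. Members past ± 0.6 among them are labelled.

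Between the burn groups, 13 of 91 members were called, 11 lower and 2 higher in young burn. This is 14.3% of the members, against 21.1% of protein-coding genes. In the lower direction it is 12.1%, against 9.89%, and in the higher direction 2.20%, against 11.2%. With all 12 libraries 4 were called, all lower, against 11% of protein-coding genes: Otud3, Usp24, Usp47 and Usp13. Without young burn replicate 1, young burn replicate 3 or adult burn replicate 2 the count was 5, 6 and 7.

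Otud3, Usp24 and Usp47 were called between the ages in both sham and burn, which is 42.9% of the 7 and 23.1% of the 13. Of protein-coding genes, 817 were called in both, 58.0% of those called in sham and 32.5% of those called in burn. Otud3 had 5.91 and 6.13 CPM in young burn, 5.30 in the mouse left out, and 12.7, 12.1 and 14.7 in adult burn (log2 -1.12 ± 0.21, adjusted p 0.00274). Usp24 had 59.8 and 56.6 CPM, 57.0 in the mouse left out, and 86.4, 98.5 and 88.5 in adult burn (log2 -0.64 ± 0.13, adjusted p 0.00372). Usp47 had 183 and 188 CPM, 217 in the mouse left out, and 256, 276 and 291 in adult burn (log2 -0.56 ± 0.12, adjusted p 0.00586). For these genes the library that stood apart lay with its own age group. Otud3 and Usp24 were called between the ages, in sham and in burn, under every alternative run, and Usp47 under all but the fit without young burn replicate 1 (adjusted p 0.0612, between the burn groups).

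Usp9x was called between the sham groups but not between the burn groups. Young burn mice had 23.5 and 30.7 CPM, 36.7 in the mouse left out, and adult burn mice 37.7, 35.8 and 31.4 (log2 -0.37, adjusted p 0.113). The change with burn was 0.50 in young and -0.099 in adult mice on the log2 scale, a difference of 0.60 with a 95% interval of 0.13 to 1.07. This interval is not adjusted for the genes tested. The difference contains the sham comparison by which Usp9x was picked, so the interval is no separate support. The adjusted p of 0.362 for the difference did not pass. No member was called for such a difference in burn response between the ages by edgeR, against 0.101% of protein-coding genes, and 8 had an unadjusted p under 0.05 (8.79%, against 11.3%). With all 12 libraries edgeR called no member and 0% of protein-coding genes. DESeq2 called none of the 15 members it gave an adjusted p, against 3.27%.

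The other called E2 genes lower in young burn were Ube2g1 (log2 -0.64, adjusted p 0.0268), Ube2q2 (-0.57), Ube2e1 (-0.52), Ube2j2 (-0.41) and Ube2b (-0.35, adjusted p 0.0416). Ube2j2, also an E2 of endoplasmic reticulum quality control, is named after its values were seen. Ube2g1 had 250 and 227 CPM in young burn and 290, 416 and 416 in adult burn. The mouse left out had 342, inside the adult range, and with it Ube2g1 was not called (adjusted p 0.166). Ube2b had 837 and 789 CPM, 833 in the mouse left out, and 961 to 1084 in adult burn, a 1.27-fold difference in the most abundant member. With all 12 libraries its adjusted p was 0.0815. Ube2q2 had 44.6 and 50.1 CPM in young burn and 67.9, 71.6 and 72.4 in adult burn. The mouse left out had 72.9, above every adult burn mouse, and with it the log2 difference was -0.34 (adjusted p 0.219). Ube2e1 had 24.9 and 18.0 CPM in young burn, 21.9 in the mouse left out, and 29.8, 31.3 and 32.1 in adult burn. It was not called with all 12 libraries (adjusted p 0.0558), and without young burn replicate 3 its log2 difference was -0.32 (adjusted p 0.339). Ube2j2 had an adjusted p of 0.0738 with all 12. Leaving out any 1 of young burn replicate 1, young burn replicate 3, adult burn replicate 2 or adult burn replicate 3 ended the calls of Ube2g1, Ube2j2 and Ube2b. The call of Ube2q2 ended without young burn replicate 1, and that of Ube2e1 when any adult burn library was left out.

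The other called USP genes lower in young burn were Usp38 (log2 -0.49), Usp10 (-0.49) and Usp13 (-0.44, adjusted p 0.0415). Usp13, the highest USP gene of this muscle per length, had 413 and 344 CPM in young burn, 352 in the mouse left out, and 465, 532 and 548 in adult burn. The groups did not overlap with or without that mouse. As Usp13 is described here for its call, the lack of overlap in the 11 libraries is no separate support. For Usp38 it had 72.7 CPM, above all 11 other libraries, against 38.7 and 33.7 in the other young burn mice and 52.0, 53.3 and 48.3 in adult burn. With all 12 libraries the log2 difference of Usp38 was -0.080 (adjusted p 0.848). For Usp10, whose product is found in stress granules, the mouse left out had 61.5 CPM against 32.6 and 36.6 in the other young burn mice and 49.6, 50.4 and 46.2 in adult burn. With it the log2 difference of Usp10 was -0.16 (adjusted p 0.614). Usp38 also lost its call without young burn replicate 3 (adjusted p 0.132), Usp10 without young burn replicate 1 (0.103), and Usp13 without young burn replicate 1 or 3 or adult burn replicate 2 or 3.

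The 2 members called higher in young burn belong to 1 pathway, that of ISG15, a ubiquitin-like protein induced by interferon. Uba7 is its E1, Ube2l6 its E2 and Usp18 the protease that removes it. Usp18 (chr6:121245906-121270917) had 4.30 and 7.36 CPM in young burn and 2.68, 2.17 and 2.41 in adult burn (log2 1.25 ± 0.33, adjusted p 0.0175). The mouse left out had 2.56 CPM, inside the adult range, and with it the adjusted p was 0.113. Ube2l6 (chr2:84798828-84810335) had 12.01 and 17.0 CPM, 12.4 in the mouse left out, and 8.72, 8.68 and 9.47 in adult burn (log2 0.69 ± 0.23, adjusted p 0.0439, and 0.0809 with 12 libraries). Uba7 had 8.96 and 10.8 CPM, 9.13 in the mouse left out, and 7.21, 5.96 and 6.497 in adult burn (log2 0.59, adjusted p 0.109). Usp18 rests on 12 to 36 counts a library.

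ISG15 itself, named here because the members act on it, had 4.48 and 9.40 CPM in young burn, 3.83 in the mouse left out, and 2.01, 2.35 and 2.23 in adult burn (log2 1.64, adjusted p 0.00714, and 0.0300 with 12 libraries). Of 13 interferon response genes tested, 11 were called higher in young burn, with a median log2 fold change of 1.29. Their sum was 170 and 256 CPM in young burn and 160 in the mouse left out. It was 131 to 175 in young sham, 119 to 121 in adult sham and 98.1 to 107 in adult burn. Young burn replicate 3 was the highest library for Usp18, Ube2l6 and Isg15 alike, and without it neither Usp18 nor Ube2l6 was called. Ube2l6 also lost its call when any other of the burn libraries was left out. Within one age, Usp18 had 3.41, 4.25 and 6.34 CPM in young sham, which overlaps young burn (log2 0.32, adjusted p 0.669), and 4.34, 3.17 and 4.03 in adult sham, all above adult burn (log2 -0.67, adjusted p 0.388). Markers of several cell types moved with the comparison of the burn groups. Of 6 macrophage markers 4 were called higher in young burn, with a sum of 273 and 434 CPM against 181 to 255 in adult burn. Of 5 fibroblast markers 3 were called higher (6917 and 8849 against 2801 to 3692 CPM), as were 3 of 5 endothelial markers (431 and 340 against 248 to 269), 3 of 4 Schwann cell and nerve markers (334 and 190 against 113 to 155) and 3 of 6 slow fibre markers (1325 and 1044 against 515 to 615). In the mouse left out, the slow fibre sum was 379 CPM, below every adult burn mouse. Its Schwann cell and nerve sum was 136 CPM, inside the adult burn range. Its macrophage, fibroblast and endothelial sums were 306, 6796 and 323 CPM, above every adult burn mouse. None of these markers was at 0 in all libraries, and none was called lower. Their part in the 13 calls was not tested.

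**Figure D4:**
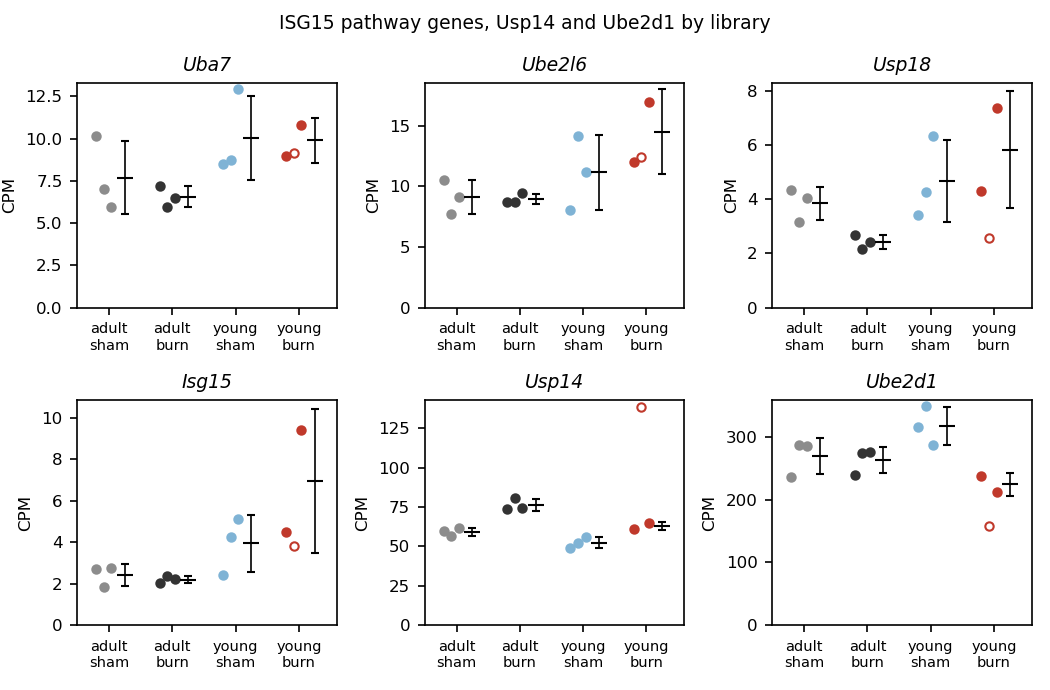
CPM of the ISG15 enzymes Uba7, Ube2l6 and Usp18, of Isg15 itself, and of Usp14 and Ube2d1, 1 point per mouse with mean ± SD. The open circle is young burn replicate 2, left out of mean and SD. Usp18 is highest in 1 young burn mouse at 7.36 CPM, Usp14 reaches 138 CPM in the mouse left out, and Ube2d1 is lowest there at 158 CPM.

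Genes of the same system that the name rule does not reach were tested between the burn groups as well. Of 29 other deubiquitinases and related proteases, 5 were called lower in young burn (Bap1, Brcc3, Cops5, Mindy1, Uspl1) and 1 higher (Mindy2). Of 11 other E1 and E2 genes, Cdc34, the relative of Ube2r2, was called lower (log2 -0.32, adjusted p 0.0496). Of 10 muscle atrophy ligases 5 were called lower, led by Fbxo32 at log2 -2.54, and of 32 proteasome subunits 6 were lower and none higher. Of all protein-coding genes tested, 21.1% were called between the burn groups, 9.89% lower and 11.2% higher in young burn. Between the sham groups, 1 of the 29, none of the 11, 1 of the 10 and 3 of the 32 were called, each lower in young mice. There, 11.9% of protein-coding genes were called in either direction and 6.77% lower in young mice. Whether the counts of these genes differ from those shares was not tested. In summed level, the members stood at 5931 and 5752 CPM in young burn, 6628 in the mouse left out, 6558 to 7252 in adult burn, 5958 to 6402 in young sham and 6386 to 6874 in adult sham.

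Several members on the fixed list showed no called difference by edgeR in any comparison of 11 libraries. Among them were Uba1, Uba6, Uba7, Ube2c, Ube2d1, Ube2d2a, Ube2d3, Ube2n, Ube2o, Usp2, Usp14, Usp19, Usp28, Uchl1, Uchl3, Uchl5, Otub1, Otud1 and Otud7b. Uba1 stood at 119 to 153 CPM over the 11 libraries, with a burn difference of 0.018 in adult mice (95% interval -0.20 to 0.24 on the log2 scale) and -0.016 in young mice (-0.27 to 0.23). Usp19 had 125, 134 and 107 CPM in adult burn and 107, 126 and 141 in adult sham, which overlap. Ube2c, the E2 that drives exit from mitosis, stayed between 1.45 and 5.06 CPM.

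In young burn replicate 2, 45 of the 91 members lay outside the range of the other 11 libraries, 26 above and 19 below. This is 49.5% of the members, against 41.5% of the protein-coding genes tested. Ube2o, an E2 that also acts as a ligase on orphan proteins, had 100.4 CPM there against 26.5 and 30.2 in the other young burn mice and at most 43.0 elsewhere. Usp45 had 104 CPM against 35.1 and 35.4, and Usp5, which takes free ubiquitin chains apart, had 148 against 57.3 and 61.9. Usp14 had 138 CPM, above its highest adult burn value of 80.4. On the low side Otud1 had 20.5 CPM against 62.2 and 48.6, and Usp11 had 1.83 against 3.94 and 5.93. Usp18 had 2.56 CPM against 4.30 and 7.36. Otud1 lay below all other 11 libraries, while Usp11 and Usp18 lay inside their range. Proteasome subunits summed to 10969 CPM in this library and to 7873 at most in the others.

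**Figure D5:**
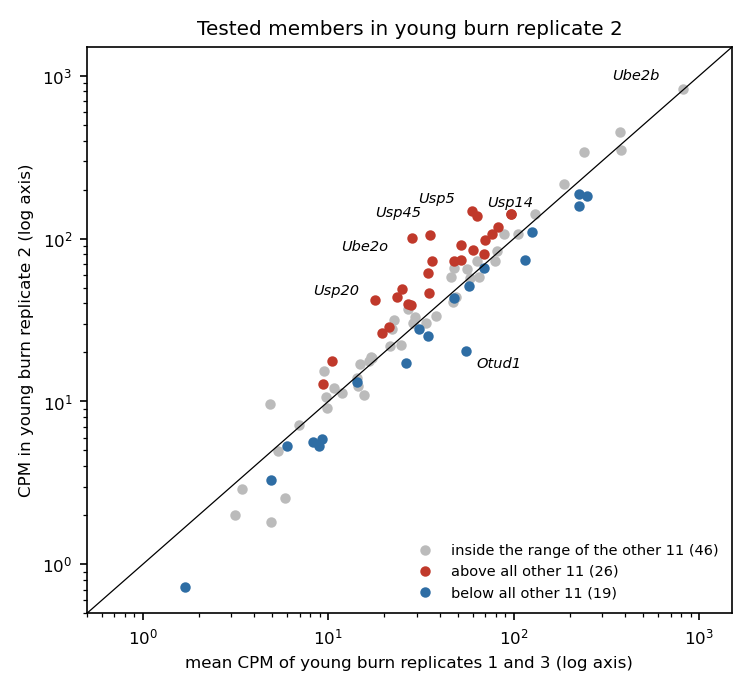
CPM of the 91 tested members in young burn replicate 2 against the mean of young burn replicates 1 and 3, on log axes with the line of equality. The 26 members above all other 11 libraries and the 19 below them are coloured, and Ube2o lies farthest above the line.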

How the data were processed

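Poly-A RNA libraries of 12 gastrocnemius muscles were sequenced. The authors mapped reads to GRCm38 with STAR (2.7.5c in the submitters' processing notes) and deposited raw gene counts from its gene-count option with Gencode M25. That option counts reads that fall in a single gene. Sources used here do not give the strand setting. The miRNA table was not used.

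Row identifiers were matched to Gencode M21, which left 260 rows unnamed. The members and lists were chosen with earlier results of these data known. Genes were filtered with filterByExpr (minimum count 10, minimum total 15), scaled by TMM and fitted with edgeR 4.0.16 (quasi-likelihood, R 4.3.3) on 11 libraries of all 4 groups, which share an estimate of the spread. P-values were adjusted by Benjamini-Hochberg over all genes tested. CPM values use TMM factors of all 12 libraries. The script was tested on simulated data. DESeq2 1.42.0, all 12 libraries, other scalings, no filter, the groups compared alone, a replicate block and leaving out each library were alternatives.

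Named genes were the called members (the 8 largest each way) and a fixed list of members. For levels, the 5 highest of each class were named (some members are not reported here by name), and for young burn replicate 2 the 3 farthest each way. Same-numbered libraries were checked for pairing: 2 of 15 pairs had correlated deviations over 0.1, as had 5 of 30 other pairs. Each library is 1 mouse.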

Additional observations from a re-analysis of the deposited data

Results flagged for a closer look

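In young burn replicate 2, the library kept out of the comparisons, 3 members lay farthest above the other young burn mice and above every sham mouse. Ube2o was at 100.4 CPM, Usp45 at 104.4 CPM and Usp5 at 147.7 CPM. The highest sham or adult value was 43.0 CPM for Ube2o, 48.3 CPM for Usp45 and 74.6 CPM for Usp5. No group had 4 mice, so no test for a single far mouse was run on a member. The library itself was left out because the study's heat map omits a young burn animal and shows the other young burn replicates.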

How the results depend on the processing

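For the 20 calls of members, 192 refits kept the call, 75 lost it and none changed the direction of the fold change. Otud3, Usp24, Usp47 and Usp9x between the sham groups, and Otud3 and Usp24 between the burn groups, were called in every refit. Ube2e1 lost its call between the burn groups in 9, Ube2g1 in 7 and Ube2l6 in 10 of 13 refits.

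Between the sham groups the main count of 7 became 13 with library size as the only scaling, which moved the median of all genes by -0.13 on the log2 scale, and 11 with no filter on low counts. Leaving out 1 library gave 4 to 12, the lowest without young sham replicate 3 and the highest when young sham replicate 1 was dropped. Of the calls, 2 were then higher in young sham, and 1 was without adult sham replicate 3. Between young burn and young sham the main count of 0 became 1 with DESeq2 (lower), 1 with library size alone (higher, median shift 0.16), 3 with no filter, and 5 with DESeq2 on all 12 libraries, an alternative chosen after seeing the data. Every fit that left out 1 library gave 0. Between the burn groups the main count of 13 became 4 with all 12 libraries and 6 with DESeq2 on all 12, and leaving out 1 library gave 5 to 15. The counts for adult burn and for the difference in burn response were 0 under every alternative. The cause of these shifts was not tested.

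Of same-numbered pairs of libraries, 2 of 15 had correlated deviations over 0.1, as had 5 of 30 other pairs. Deviations from a group mean cancel out within the group, so this check cannot exclude a shared batch. With the replicate block the count between the burn groups was 8 and that between the sham groups 6, and no sham-against-burn count moved from 0.

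With 2 or 3 mice a group and as few as 12 counts for Usp18, differences of low members are imprecise.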
